A study of Mus musculus with 12 samples.

Results

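Among the genes that mark germ cells, 36 genes of meiosis, of the piRNA pathway and of the male germ line that accompany Stra8, the gene through which retinoic acid starts meiosis, were followed in mouse TPS cells and EPS cells. They were chosen by name, with earlier results of these data known, and matched by symbol to the GENCODE M21 annotation, and all 36 were among the 55401 genes of the count files. TPS cells are cells with totipotent potential, and EPS (extended pluripotent stem) cells are a mouse stem cell type with both embryonic and extraembryonic potential. The study describes the extraembryonic potential of EPS cells as still limited beside that of totipotent embryos. Polyadenylated RNA was sequenced from 3 TPS lines and 3 EPS lines, each as 2 technical replicates, so that 12 libraries were compared. The TPS lines grew in the medium that the labels call VCED, which the study's methods describe under the name CPEC. That condition holds CD1530, an agonist of the retinoic acid receptor RARγ, together with VPA, which inhibits histone deacetylases, EPZ004777, which inhibits the histone methyltransferase DOT1L, and an inhibitor of the kinase GSK3. The EPS lines grew in LCDM medium, and both cell types grew on feeder cells, which the study prepares from mouse embryonic fibroblasts. The strain, the sex and the parent line of the sequenced lines are not given in the sources used here, so p-values measure the spread between these lines.

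Germ cells enter meiosis when retinoic acid switches on Stra8 in cells that DAZL has made competent to respond. In meiotic prophase the chromosomes are rebuilt: meiosis-specific cohesin subunits hold the sister chromatids on an axis, SPO11 cuts the DNA, DMC1 helps to pair the broken ends with the homologous chromosome, and the synaptonemal complex joins the homologues along their length. In the same cells, piRNAs, small RNAs bound by PIWI proteins, silence transposons from cytoplasmic germ granules. Many of these genes are held silent in somatic and pluripotent cells by DNA methylation and by repressor complexes that contain E2F6 or MGA.

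Each library held between 13676051 and 21821707 counts, and both technical replicates of each line were added up before testing, which gave 29877215 to 38466294 counts per line. Within a line the technical replicates varied beyond counting noise: chi-square divided by its degrees of freedom was 2.58 to 9.61 in 5 lines and 22.3 in EPS line 3. Expression is given in CPM, which scales the counts of a library by its total and its TMM factor. Of the 36 genes, 34 passed the filter on low counts and were tested with edgeR's quasi-likelihood test among 17468 genes, with p-values adjusted by the Benjamini-Hochberg method and a threshold of 0.05. Each of 7 general pluripotency genes had counts in every library of both cell types, and 4 of them, Pou5f1, Esrrb, Klf4 and Tfcp2l1, were lower in TPS lines. These genes mark pluripotent cells and do not set EPS cells apart from other pluripotent cells. All 7 markers of the 2-cell stage were higher in TPS lines, with summed levels of 171 to 219 CPM against 0.0588 to 0.0979 CPM. Both cell types also held RNA of 16 fibroblast genes. Its summed level was 3530 to 6380 CPM in TPS lines and 331 to 1400 CPM in EPS lines. Whether this RNA came from feeder cells or from the lines themselves was not tested. In bulk RNA, fewer cells of a type and less RNA per cell cannot be told apart.

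Of the 34 tested genes, 18 were higher in TPS lines and none was lower. Those 18 are 52.9% of the tested genes, where 14.4% of all 17468 tested genes were called higher. Because the genes were chosen with earlier results of these data known, this difference is no test of the group. For lower levels the share over all genes was 7.34%, no gene of the 34 was lower even at an unadjusted p under 0.05, and DESeq2 called 0 lower and 19 higher, the same 18 and Spo11, which edgeR's filter had left out. The median log2 fold change over the 34 genes was 1.45, and over all tested genes it was 0.0. In 22 of the 34 genes all TPS lines lay above all EPS lines, which held for 23.6% of all tested genes. In 1 of them, Syce2, all TPS lines lay below all EPS lines, which held for 19.1% of all tested genes. By role, 4 of 5 genes of meiotic entry, 1 of 3 cohesin genes, 5 of 10 genes of the synaptonemal complex and axis, 2 of 7 tested genes of DNA breaks and recombination, 3 of 6 genes of the piRNA pathway and germ granule, and 3 of 3 other male germ cell genes were higher.

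**Figure D1:**
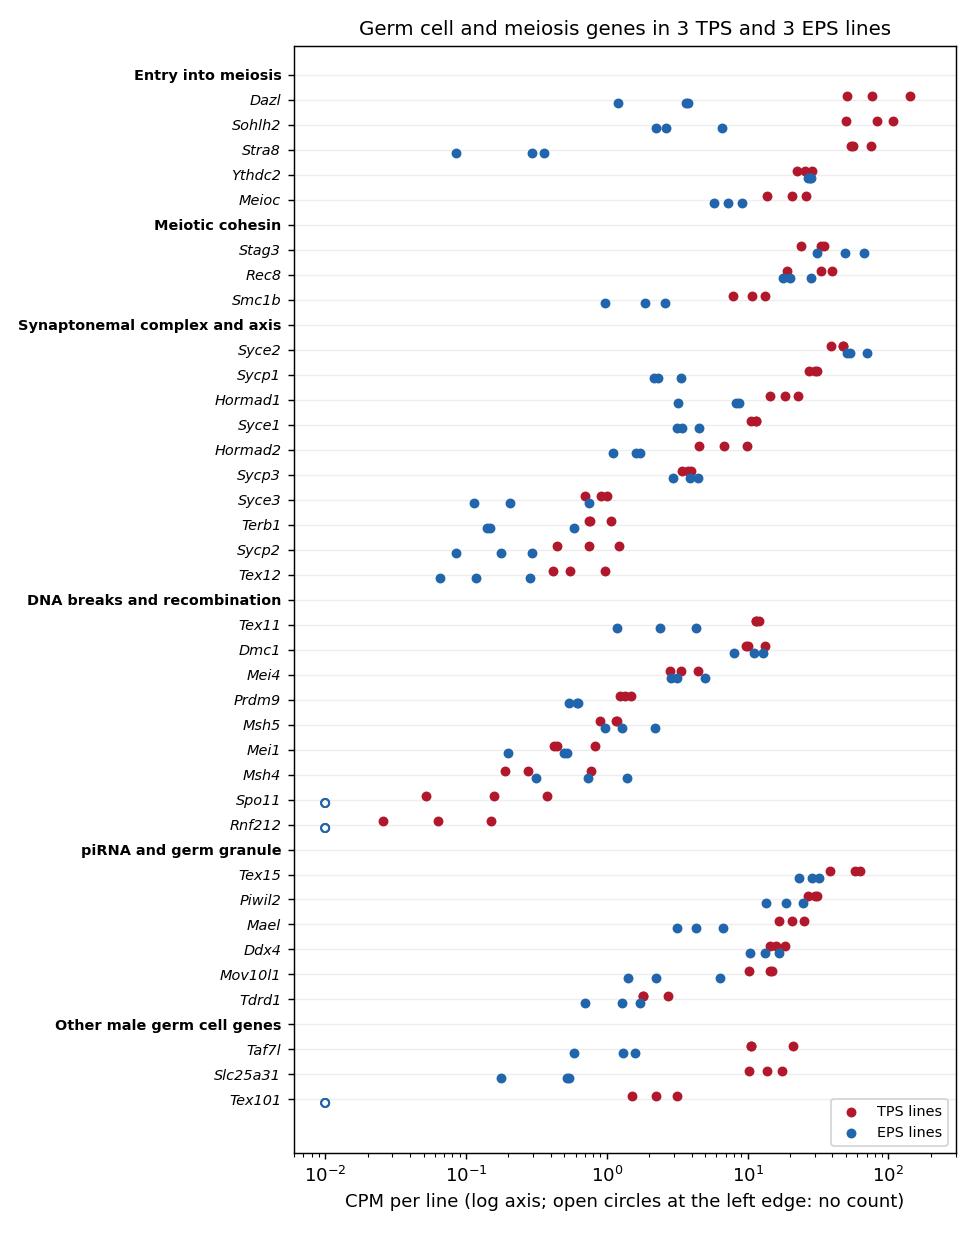
Level of each of the 36 genes in the 3 TPS lines (red) and the 3 EPS lines (blue), in CPM on a log axis, grouped by role. Open circles at the left edge stand for lines with no count, and Stra8, Slc25a31 and Dazl show the widest gaps between the groups among genes with counts in EPS lines.

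Stra8 lies on chromosome 6 (GRCm38, chr6:34920163-34939344) and had the largest fitted change among the members with counts in EPS lines. Its level was 75.3, 54.3 and 56.3 CPM in TPS lines 1 to 3 and 0.359, 0.294 and 0.0853 CPM in EPS lines 1 to 3. All TPS lines were thus far above all EPS lines, and the EPS libraries held only 4, 7, 2, 8, 1 and 2 counts of Stra8. The fold change was 252, a log2 value of 7.98 ± 0.42 (SE, n = 3 lines per group, edgeR adjusted p = 0.000152), and because the EPS counts were so few its size is less certain than its direction. When each line was left out in turn, the log2 fold change stayed between 7.54 and 8.31.

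RefSeq places a start of Stra8 inside the M21 gene, and the window around it is shown because receptors for retinoic acid bind DNA as dimers on direct repeats of a half-site, AGGTCA in its common form. The window runs from 250 bases before to 50 bases after that start on the plus strand (GRCm38.p6, chr6:34920698-34920997), and capitals mark AGGTCA.
Stra8: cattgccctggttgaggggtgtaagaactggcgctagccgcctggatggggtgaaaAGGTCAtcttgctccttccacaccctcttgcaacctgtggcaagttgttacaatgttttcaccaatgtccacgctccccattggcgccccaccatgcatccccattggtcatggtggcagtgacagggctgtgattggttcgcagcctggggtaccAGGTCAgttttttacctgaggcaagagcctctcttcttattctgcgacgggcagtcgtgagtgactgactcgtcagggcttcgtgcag
AGGTCA stands in this window 194 and 38 bases before the start, so the marked copies lie far apart. Only exact copies were marked, variant half-sites beside them were not searched for, and nothing follows here on whether a direct repeat is present. Stra8 was the only member with 2 or more copies of AGGTCA or its reverse complement TGACCT in a window, which held for 545 genes or 2.02% of all 27025 genes with a window. A match is a string of letters only, and no binding was measured here.

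The other genes of meiotic entry followed, with 1 exception. Dazl, an RNA-binding protein that lets germ cells respond to retinoic acid, had 143, 76.2 and 51.0 CPM in the TPS lines and 3.75, 1.21 and 3.67 CPM in the EPS lines. The groups did not overlap, and the log2 fold change was 4.97 ± 0.56 (edgeR adjusted p = 0.00251). Sohlh2, a transcription factor of early germ cell differentiation, had 108, 83.4 and 50.2 CPM in the TPS lines and 6.56, 2.62 and 2.22 CPM in the EPS lines. Again the groups were apart, with a log2 fold change of 4.41 ± 0.50 (edgeR adjusted p = 0.00251), which was 5.03 without EPS line 1. Meioc, which works with YTHDC2 to end the mitotic programme, had 13.7, 20.6 and 25.9 CPM in the TPS lines and 5.77, 9.15 and 7.22 CPM in the EPS lines. The lines of the groups did not overlap, the log2 fold change was 1.44 ± 0.30 (edgeR adjusted p = 0.0151), and the call was lost without TPS line 3 (edgeR adjusted p = 0.0542). Ythdc2, the RNA-binding partner of MEIOC, was the exception, with 22.4 to 28.6 CPM in TPS lines and 27.0 to 28.2 CPM in EPS lines and a log2 fold change of -0.12 ± 0.16 (edgeR adjusted p = 0.612). Gm4969, which encodes MEIOSIN, the partner of STRA8 in gene activation, is no member and was looked up after values were seen. It had 24, 32 and 48 counts in the TPS lines and 11, 4 and 15 counts in the EPS lines, without overlap, and it did not pass the test (log2 fold change 1.69 ± 0.59, edgeR adjusted p = 0.0794).

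Set per kilobase of exon, so that genes can be compared, the order of the members differed between the cell types. In TPS lines the highest mean levels were 34.4 CPM per kb for Stra8, 34.1 for Sohlh2, 23.6 for Dazl and 22.8 for Syce2. In EPS lines Syce2 led with 29.7 CPM per kb, followed by 8.53 for Stag3 and 7.5 for Rec8, while Stra8 stood at 0.136 CPM per kb. EPS lines thus already held RNA of some cohesin and synaptonemal complex genes at levels that overlapped with or lay above those of TPS lines. Summed over all 36 genes, the TPS lines had 768, 651 and 572 CPM and the EPS lines 332, 263 and 258 CPM.

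Of the 3 meiosis-specific cohesin subunits, 1 passed the test. Smc1b, the meiotic form of the SMC1 subunit, had 13.4, 10.8 and 7.91 CPM in the TPS lines and 2.61, 1.88 and 0.967 CPM in the EPS lines. Its groups did not overlap, and the log2 fold change was 2.56 ± 0.42 (edgeR adjusted p = 0.00728). Rec8, the meiotic kleisin that closes the cohesin ring, had 19.0 to 39.8 CPM in TPS lines and 17.8 to 28.2 CPM in EPS lines. These ranges overlapped, and the log2 fold change was 0.48 ± 0.30 (edgeR adjusted p = 0.285). Stag3, the meiotic STAG subunit, had 23.8 to 35.2 CPM in TPS lines and 31.1 to 66.8 CPM in EPS lines. The ranges overlapped as well, with a log2 fold change of -0.66 ± 0.29 (edgeR adjusted p = 0.137), and Stag3 was called lower without EPS line 3 (edgeR adjusted p = 0.0415).

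Each meiotic subunit has a counterpart that dividing cells use, and the level per kb of the meiotic gene was taken as a percentage of that of its counterpart within each line. Smc1b was at 14.3% of Smc1a on average in TPS lines (11 to 16%) and at 1.68% in EPS lines (0.896 to 2.16%). Those ranges were apart, and Smc1a itself was lower in TPS lines (log2 fold change -0.53 ± 0.14, edgeR adjusted p = 0.0362). Rec8 was at 15.8% of Rad21 in TPS lines (9.46 to 20.4%) and at 10.6% in EPS lines (7.84 to 14.0%), which overlapped. Stag3 was at 88.2% of Stag1 in TPS lines (66.6 to 106%) and at 107% in EPS lines (59.7 to 144%). Against Stag2, the other mitotic form, it was at 51.6% in TPS lines (37.3 to 61.4%) and at 61% in EPS lines (39.1 to 98.3%), and both pairs of ranges overlapped.

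**Figure D2:**
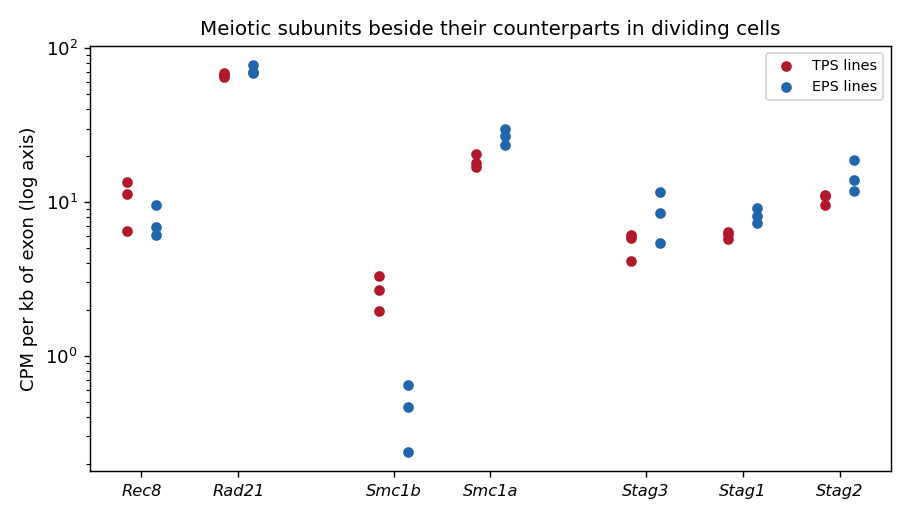
CPM per kb of exon on a log axis in the 3 TPS lines (red) and the 3 EPS lines (blue) for the meiotic cohesin subunits, each beside the counterparts used in dividing cells. Of the 3 meiotic genes, Smc1b has groups that lie apart and the other two overlap, and Stag3 lies near Stag1 and under the mean of Stag2 in both cell types.

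In the synaptonemal complex and axis group, 5 of 10 genes were higher in TPS lines, where 14.4% of all tested genes were. They came from different layers of the structure, as did the genes that did not pass the test. Sycp1, the transverse filament that bridges the homologues, had 27.2, 31.2 and 30.3 CPM in the TPS lines and 2.15, 2.32 and 3.38 CPM in the EPS lines. The TPS lines lay close together and well above the EPS lines, with a log2 fold change of 3.49 ± 0.24 (edgeR adjusted p = 0.000588). Syce1, a central element protein, had 11.4, 10.5 and 11.4 CPM in the TPS lines and 4.53, 3.44 and 3.16 CPM in the EPS lines, apart from each other. Its log2 fold change was 1.58 ± 0.25 (edgeR adjusted p = 0.00662). Hormad2, which marks unsynapsed axes, had 9.86, 6.83 and 4.54 CPM in the TPS lines and 1.73, 1.62 and 1.11 CPM in the EPS lines. The groups did not overlap, with a log2 fold change of 2.25 ± 0.39 (edgeR adjusted p = 0.00832). Hormad1, its relative on the same axes, had 22.8, 18.6 and 14.4 CPM in the TPS lines and 3.23, 8.73 and 8.28 CPM in the EPS lines. These lines were apart, with a log2 fold change of 1.46 ± 0.39 (edgeR adjusted p = 0.0349), but the call was lost when any line other than EPS line 1 was left out (edgeR adjusted p of up to 0.0987). Hormad1 also shares 65.7% of its longest transcript at 100% identity with Gm15529, so its reads could be split between these genes. Sycp2, a component of the axial element, was low in both groups, with 1.22, 0.751 and 0.444 CPM in the TPS lines and 0.294, 0.176 and 0.0853 CPM in the EPS lines. The groups did not overlap (log2 fold change 2.12 ± 0.60, edgeR adjusted p = 0.0419), and leaving out any of the 6 lines ended the call (edgeR adjusted p of up to 0.132).

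The other 5 genes of this group did not pass the test. Syce2, a central element protein, had 39.4 to 47.8 CPM in TPS lines and 51.0 to 70.6 CPM in EPS lines, without overlap (log2 fold change -0.38 ± 0.17, edgeR adjusted p = 0.15). Sycp3, the main axial element protein, had 3.43 to 3.97 CPM in TPS lines and 2.96 to 4.44 CPM in EPS lines (log2 fold change -0.02 ± 0.29). Sycp3 shares 660 exonic bases, 52.2% of its exons, with Chpt1 on the opposite strand. Whether strand was used in counting is not given in the sources used here, so reads of Sycp3 and Chpt1 may have been mixed. The remaining genes were at or below 1.07 CPM in every line. The log2 fold change was 1.30 for the central element gene Syce3 and 2.01 for Tex12. It was 1.57 for Terb1, which ties telomeres to the nuclear envelope. In Tex12 and Terb1, but not in Syce3, the TPS lines all lay above the EPS lines. These low genes gained calls in single leave-outs: without EPS line 1 the log2 fold change was 2.40 for Syce3 (edgeR adjusted p = 0.0354) and 2.52 for Terb1 (edgeR adjusted p = 0.0283), and without EPS line 3 it was 2.75 for Tex12 (edgeR adjusted p = 0.0456). Terb1 also differed between technical replicates, with 3.58 on the first alone and 0.87 on the second alone.

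The genes that make and repair the programmed DNA breaks had a median log2 fold change of 0.05 over the 7 that were tested. Spo11, the enzyme that cuts the DNA, had 15, 2 and 5 counts in the TPS lines and none in the EPS lines. These were too few for the filter, and Spo11 was called higher by DESeq2 (adjusted p = 0.0405) and by edgeR without a filter (adjusted p = 0.0229). No fold change is given because its mean TPS level, 0.195 CPM, lies under the 0.238 CPM that 3 counts make in the shallowest EPS library. Rnf212, a crossover factor, had 6, 1 and 2 counts in the TPS lines and none in the EPS lines and was left out by the filter too. It did not pass in edgeR without a filter (adjusted p = 0.14), and DESeq2 gave no adjusted p. Tex11, an X-linked crossover gene, had 11.4, 12.1 and 11.5 CPM in the TPS lines and 2.38, 1.18 and 4.29 CPM in the EPS lines. The groups were apart, with a log2 fold change of 2.15 ± 0.45 (edgeR adjusted p = 0.0154), and the call was lost without EPS line 1 (edgeR adjusted p = 0.0533). Prdm9, the methyltransferase that places the breaks, had 1.35, 1.48 and 1.24 CPM in the TPS lines and 0.620, 0.618 and 0.540 CPM in the EPS lines. The lines did not overlap (log2 fold change 1.19 ± 0.34, edgeR adjusted p = 0.0445), but leaving out any of the 6 lines ended the call (edgeR adjusted p of up to 0.116), and with the first technical replicates alone the log2 fold change was 0.31. Dmc1 had 9.68 to 13.3 CPM in TPS lines and 8.08 to 12.8 CPM in EPS lines, overlapping, and Mei4, needed for break formation, had 2.80 to 4.47 CPM and 2.88 to 4.98 CPM. The log2 fold change was 0.05 ± 0.26 for Dmc1 and -0.05 ± 0.35 for Mei4. It was 0.48 for Mei1, a break formation gene, and -0.96 and -0.44 for Msh4 and Msh5, which form a complex that stabilizes crossover intermediates, and none of these passed the test. Msh4, with few counts, ranged from -1.78 without TPS line 2 to -0.35 without EPS line 1.

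**Figure D3:**
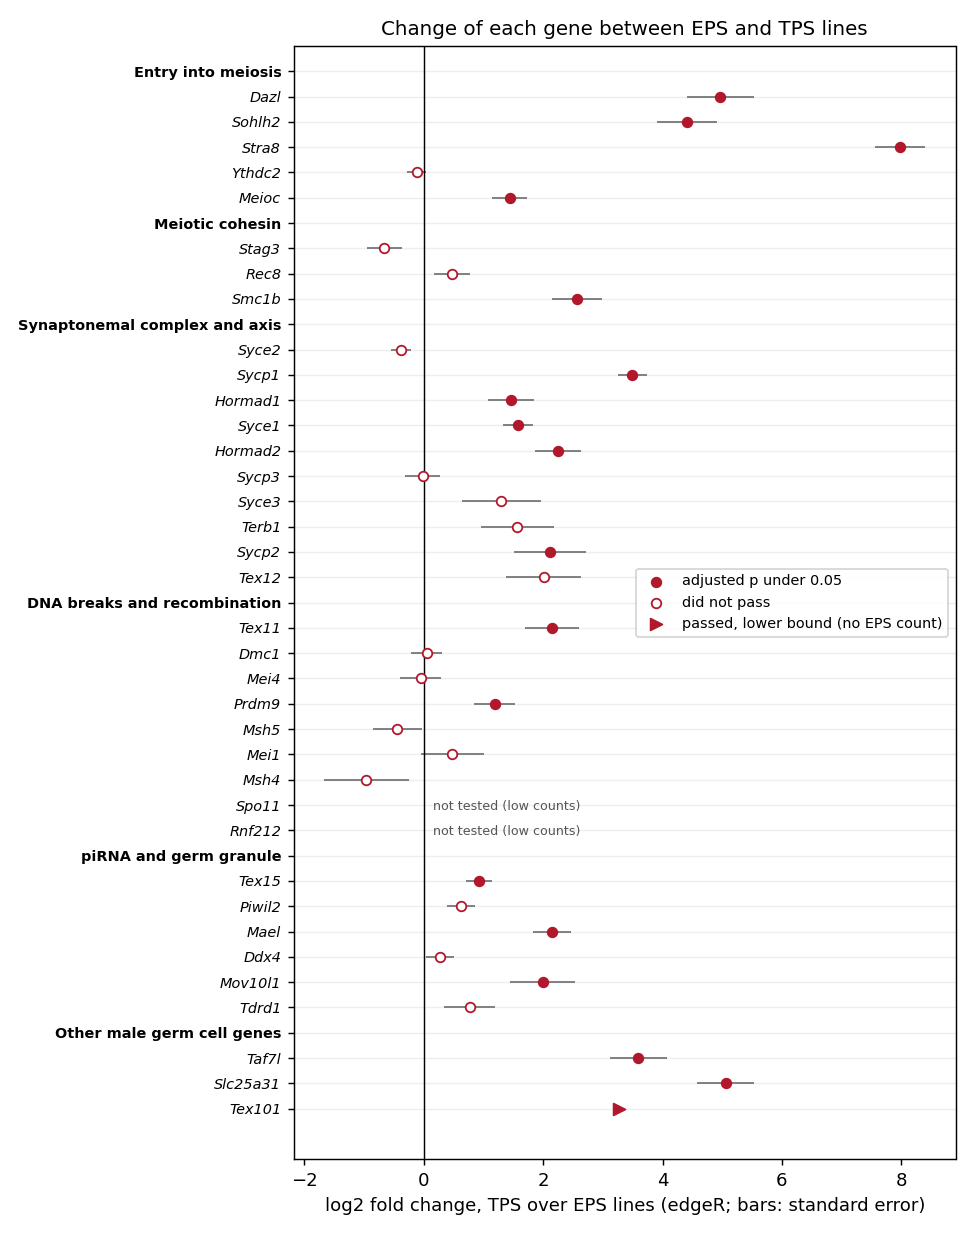
Fitted log2 fold change of TPS over EPS lines with its standard error for each tested gene, in edgeR with 3 lines per group. Filled points passed an adjusted p of 0.05, open points did not, and the triangle for Tex101 is a lower bound because EPS libraries held no count of it. Among genes with counts in EPS lines, Stra8, Slc25a31, Dazl and Sohlh2 have the highest values, and Sycp3, Dmc1 and Mei4 lie nearest to 0.

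In the piRNA pathway and germ granule group, all 6 genes had a positive log2 fold change, as 49.8% of all tested genes did, and 3 passed the test. Mael, a protein of piRNA processing and transposon silencing, had 25.1, 20.8 and 16.8 CPM in the TPS lines and 6.65, 3.18 and 4.27 CPM in the EPS lines. The groups did not overlap, with a log2 fold change of 2.15 ± 0.32 (edgeR adjusted p = 0.00543). Mov10l1, the helicase that starts piRNA production, had 14.9, 14.5 and 10.3 CPM in the TPS lines and 6.36, 1.41 and 2.22 CPM in the EPS lines. EPS line 1 was the highest EPS line and the groups were apart (log2 fold change 1.99 ± 0.54, edgeR adjusted p = 0.0366), but the call held only in 1 of the 6 fits that left out a line, without EPS line 1, where the log2 fold change was 2.83 (edgeR adjusted p of up to 0.0928 in the others). Tex15, needed for transposon silencing and for break repair in male germ cells, had 57.9, 38.8 and 63.2 CPM in the TPS lines and 23.2, 28.6 and 32.1 CPM in the EPS lines. These lines did not overlap (log2 fold change 0.93 ± 0.22, edgeR adjusted p = 0.0239), and the call was lost without TPS line 1 or 3 or EPS line 1 or 2 (edgeR adjusted p of up to 0.0816). Piwil2, the PIWI protein that binds piRNAs in early male germ cells, had 26.8 to 31.0 CPM in TPS lines and 13.5 to 24.9 CPM in EPS lines, without overlap. It did not pass the test (log2 fold change 0.62 ± 0.24, edgeR adjusted p = 0.0966), and it passed without EPS line 1 (edgeR adjusted p = 0.0459). Ddx4, the germ granule helicase that is a classical germ cell marker, had 14.4 to 18.5 CPM in TPS lines and 10.4 to 16.7 CPM in EPS lines, overlapping (log2 fold change 0.27 ± 0.23), and the log2 fold change of Tdrd1, a germ granule scaffold, was 0.77. EPS lines thus held counts of the germ granule genes Ddx4 and Piwil2 in every library.

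The 3 other male germ cell genes were all higher in TPS lines. Slc25a31, the ADP/ATP carrier of male germ cells, had 17.6, 13.8 and 10.3 CPM in the TPS lines and 0.522, 0.176 and 0.540 CPM in the EPS lines. The groups were far apart, with a log2 fold change of 5.06 ± 0.48 (edgeR adjusted p = 0.00159). Taf7l, a germ cell form of a TFIID subunit encoded on the X chromosome, had 10.6, 20.9 and 10.5 CPM in the TPS lines and 1.30, 0.588 and 1.59 CPM in the EPS lines. TPS line 2 was the highest, no lines overlapped, and the log2 fold change was 3.59 ± 0.48 (edgeR adjusted p = 0.00389). Tex101, a surface glycoprotein of germ cells, had 1.5, 3.16 and 2.25 CPM in the TPS lines and no count in any EPS library. Against 3 counts in the EPS library where these weigh most, it was at least 9.68-fold higher in TPS lines (edgeR adjusted p = 0.00343). Of the 18 called genes, TPS line 1 had the highest level in 10, TPS line 2 in 5 and TPS line 3 in 3. Over all genes called higher, these lines were the highest in 45.8%, 31.6% and 22.6%.

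TPS line 1 was also the line with the highest summed level of fibroblast genes. The 16 fibroblast genes summed to 6380, 3530 and 3730 CPM in the TPS lines and to 331, 1310 and 1400 CPM in the EPS lines, and none of the 16 was at 0. Of these, 11 were higher in TPS lines, where 14.4% of all tested genes were, and 13 had all TPS lines above all EPS lines, where 23.6% of all tested genes did. The part of feeder RNA in the results was not tested. The mitochondrial percentage was 2.31, 1.78 and 2.15% in TPS lines 1 to 3 and 1.76, 1.77 and 1.7% in EPS lines 1 to 3. TPS line 1 was again the highest, and the part of this difference in the results was not tested either. Counts per 10000 counts of the fibroblast collagen gene Col1a1, a scale chosen after values were seen, were computed for all 18 called genes. Col1a1 itself was higher in TPS lines (log2 fold change 2.62 ± 0.57, edgeR adjusted p = 0.0178), so any gene with a smaller rise is lowered in TPS lines on this scale. On it, 3 genes had all TPS lines above all EPS lines, 11 overlapped, and 4 (Meioc, Hormad1, Prdm9 and Tex15) had all TPS lines below all EPS lines. Without EPS line 1, which had the least Col1a1, these numbers were 9, 5 and 4. The 3 genes that stayed apart were Stra8, Tex101 and Slc25a31. Stra8 had 319, 312 and 406 in the TPS lines and 45.2, 6.8 and 2.26 in the EPS lines. Slc25a31 had 74.6, 79.2 and 74.0 in the TPS lines and 65.8, 4.08 and 14.3 in the EPS lines. Dazl had 606, 438 and 368 in the TPS lines and 473, 27.9 and 97.1 in the EPS lines, an overlap through EPS line 1, and Hormad1 had 96.6, 107 and 104 against 407, 202 and 219.

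**Figure D4:**
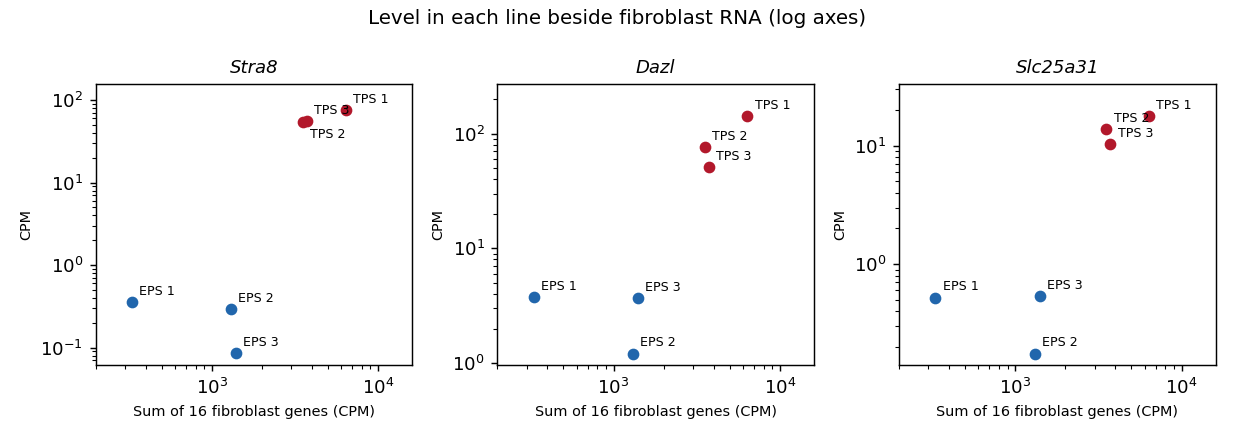
Level of Stra8, Dazl and Slc25a31 (CPM) in each line against the summed level of 16 fibroblast genes (CPM), both on log axes, with TPS lines in red and EPS lines in blue. Among EPS lines, line 1 has the lowest summed level of fibroblast genes (331 CPM). All TPS lines lie to the right of and above all EPS lines.

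The windows around the RefSeq starts of the members were searched for 2 further motifs: CACGTG, the E-box to which MYC, MAX and MGA bind and which reads the same on both strands, and TTCCCGC, a core of E2F sites, or its reverse complement GCGGGAA. The motifs share no run of letters that would let one count as the other. A window was found for 31 of the 36 genes (37 windows, since some genes have several starts) and for 27025 genes in all. Windows of 3 genes are shown with these motifs in capitals, Slc25a31 with both motifs and called higher, Mael with CACGTG and called higher, and Ddx4 with both motifs and not called. They lie at chr3:40708621-40708920 on the plus strand, chr1:166238695-166238994 on the minus strand and chr13:112652261-112652560 on the minus strand (GRCm38.p6), each read in the direction of the gene.
Slc25a31: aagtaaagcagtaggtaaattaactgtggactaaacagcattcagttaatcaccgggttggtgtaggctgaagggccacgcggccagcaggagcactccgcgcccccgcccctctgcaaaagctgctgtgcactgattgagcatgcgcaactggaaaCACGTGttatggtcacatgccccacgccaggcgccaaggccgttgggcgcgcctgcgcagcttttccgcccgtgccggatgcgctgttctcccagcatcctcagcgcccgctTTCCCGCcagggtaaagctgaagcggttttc
Mael: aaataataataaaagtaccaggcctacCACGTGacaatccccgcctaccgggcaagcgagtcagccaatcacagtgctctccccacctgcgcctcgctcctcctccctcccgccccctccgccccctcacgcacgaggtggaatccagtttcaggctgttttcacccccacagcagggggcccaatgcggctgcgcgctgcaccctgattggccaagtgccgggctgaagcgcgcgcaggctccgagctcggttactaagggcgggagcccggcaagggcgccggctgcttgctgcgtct
Ddx4: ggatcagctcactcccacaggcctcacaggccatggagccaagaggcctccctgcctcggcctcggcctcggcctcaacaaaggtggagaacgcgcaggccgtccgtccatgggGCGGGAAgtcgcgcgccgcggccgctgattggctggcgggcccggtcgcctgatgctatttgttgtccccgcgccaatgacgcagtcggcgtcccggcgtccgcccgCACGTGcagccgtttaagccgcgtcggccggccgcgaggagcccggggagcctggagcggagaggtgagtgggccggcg
In Slc25a31, CACGTG begins 93 bases before the start and TTCCCGC lies after it. In Mael, CACGTG begins 223 bases before the start. In Ddx4, CACGTG begins 29 bases and GCGGGAA 136 bases before it.

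CACGTG stood in a window of 13 of the 31 genes, or 41.9%, and in 8.09% of all genes with a window. TTCCCGC stood in 12 of 31, or 38.7%, and in 5.29% of all genes. Both were found in 8 of 31 genes, or 25.8%, namely Ddx4, Hormad1, Rnf212, Slc25a31, Stag3, Syce2, Sycp3 and Tex12, and in 0.611% of all genes. Split by call, CACGTG stood in 6 of 16 called genes and in 7 of 15 others, TTCCCGC in 5 of 16 and 7 of 15, and of the 8 genes with both, 2 were called. AGGTCA stood in 5 of 31 genes, or 16.1%, and in 18.1% of all genes. The windows of the members also held more CpG, with a median of 19 per gene against 8 over all genes, and since CACGTG and TTCCCGC each contain CG, the part of base composition in these shares was not tested.

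Other genes of the same pathways were counted against the same shares over all tested genes, 14.4% higher and 7.34% lower. Of 22 other meiosis genes, 20 were tested, 3 (15%) were higher in TPS lines and 1 was lower, near those shares, with a median log2 fold change of 0.57. Rnf212b, a relative of Rnf212, rose by 2.97 ± 0.52 on the log2 scale (edgeR adjusted p = 0.00879), with 1.70, 1.71 and 0.952 CPM in the TPS lines and 0.294, 0.147 and 0.114 CPM in the EPS lines. Terb2, the partner of TERB1, rose by 2.67 ± 0.47 (edgeR adjusted p = 0.00878). Hsf2bp, a partner of BRCA2 in meiotic recombination, fell by 1.52 ± 0.15 (edgeR adjusted p = 0.00194), from 99.1, 92.4 and 81.3 CPM in the EPS lines to 34.0, 34.0 and 27.2 CPM in the TPS lines. The third gene that was higher, named after its value was seen, was 4930447C04Rik, with a log2 fold change of 1.13.

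Of 19 other piRNA genes, 18 were tested, 8 (44.4%) were higher and 2 were lower, where 14.4% and 7.34% of all genes were. The median log2 fold change was 1.25 with Piwil4 and Henmt1, which had 3 counts or fewer in every EPS library, set at their lower bounds. Piwil4, the nuclear PIWI protein of fetal male germ cells, had 2.20, 2.82 and 1.59 CPM in the TPS lines and no count in the EPS lines, and was at least 9.25-fold higher (edgeR adjusted p = 0.00297). Asz1, which acts in piRNA processing at mitochondria, had 22.7, 5.46 and 3.49 CPM in the TPS lines and 0.0326, 0.147 and 0 CPM in the EPS lines (log2 fold change 7.38 ± 1.13, edgeR adjusted p = 0.00616). TPS line 1 was well above the other TPS lines there, and with only 1, 5 and 0 counts in the EPS lines the size of this change is uncertain. Henmt1, which methylates the ends of piRNAs, was named for its fitted value, which rests on 1 EPS count, and was at least 2.11-fold higher (edgeR adjusted p = 0.00667). Fkbp6 and Gpat2, named after their values were seen, had log2 fold changes of 4.42 ± 1.21 and 3.77 ± 0.37. Nearly all EPS counts of Fkbp6 were in EPS line 3, with 10, 2 and 105 counts in EPS lines 1 to 3. The lower genes, named after their values were seen, were Tdrd12 and Pnldc1, with log2 fold changes of -1.12 and -1.16.

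Markers of germ cell stages before and after meiotic entry were looked up as well, with 14.4% of all tested genes called higher and 7.34% lower as the background. Of 11 primordial germ cell genes, 10 were tested, Nanos3 and Itgb3 were higher (log2 fold change 1.95 and 1.86), Tcl1 was lower (-0.94), and the median was 0.06. Of 14 genes of late spermatogenesis, 4 had enough counts to be tested. The acrosomal gene Spaca1 was the 1 that was higher, at least 2.36-fold. Its level was highest in TPS line 1, on which the bound leans, with 0.874, 0.337 and 0.476 CPM in TPS lines 1 to 3. Prm2, Tnp1, Akap4 and Catsper1 had no count in any of the 12 libraries. Of 13 oocyte genes, 4 were tested, and Nobox was higher, at least 1.85-fold. Its bound rests largely on TPS line 3, with 0.275, 0.285 and 0.762 CPM in TPS lines 1 to 3. The summed level of the late spermatogenesis list was 4.25 to 6.49 CPM in TPS lines and 2.22 to 7.47 CPM in EPS lines, and that of the oocyte list was 49.3 to 65.7 and 43.4 to 67.1 CPM. Both ranges overlapped, but a few genes carry these sums: Ldhc makes up most of the late spermatogenesis sum in TPS lines, and Ooep, with 36.7 to 56.1 CPM in TPS lines and 37.7 to 58.5 CPM in EPS lines, most of the oocyte sum. Among the low oocyte genes, named after their values were seen, Zp2 and Nlrp5 had all TPS lines above all EPS lines, as Nobox did, but were not tested. The reverse order, also looked up after values were seen, held for the late spermatogenesis gene Izumo1 (log2 fold change -1.78) and the Leydig cell gene Insl3 (-2.45), and neither passed the test. Of 10 markers of gonadal somatic cells, 6 were tested and Sox9 was higher, with a log2 fold change of 2.24. Foxl2 and Dhh, named after their values were seen, had all TPS lines above all EPS lines but were not tested. The summed level of this list was 10.3 to 16.8 CPM in TPS lines and 10.5 to 10.7 CPM in EPS lines, which overlapped.

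Of 10 retinoid response genes, 9 were higher and 0 were lower, against 14.4% higher and 7.34% lower over all genes, with a median log2 fold change of 2.84 when Rarb was set at its lower bound. Rarb, a direct target of retinoic acid receptors, was at least 4.21-fold higher, and the log2 fold change was 5.72 ± 0.61 for the retinol transporter gene Stra6. The homeobox gene Hoxb1 had 1.52, 13.0 and 18.2 CPM in the TPS lines and 0, 0.382 and 0.0284 CPM in the EPS lines. Its groups did not overlap, its log2 fold change was 6.26 ± 1.29, and nearly all of its EPS counts were in EPS line 2. Of 12 other cohesin and recombination genes, most of them also used in dividing cells and with the DMC1 partners Psmc3ip and Mnd1 among them, 4 were lower, Brca2 and Smc1a among them, and none was higher, with a median of -0.41. Of 19 known repressors of germline genes, 3 were lower and 1 (5.26%) was higher. The DNA methyltransferase gene Dnmt3a rose by 2.09 ± 0.35 (edgeR adjusted p = 0.00785), Dnmt3l, its cofactor, fell by 0.88, and L3mbtl2, a subunit of the E2F6 complex, fell by 0.68. The third lower gene, named after its value was seen, was Uhrf1, which recruits maintenance DNA methylation, with a log2 fold change of -0.51.

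**Figure D5:**
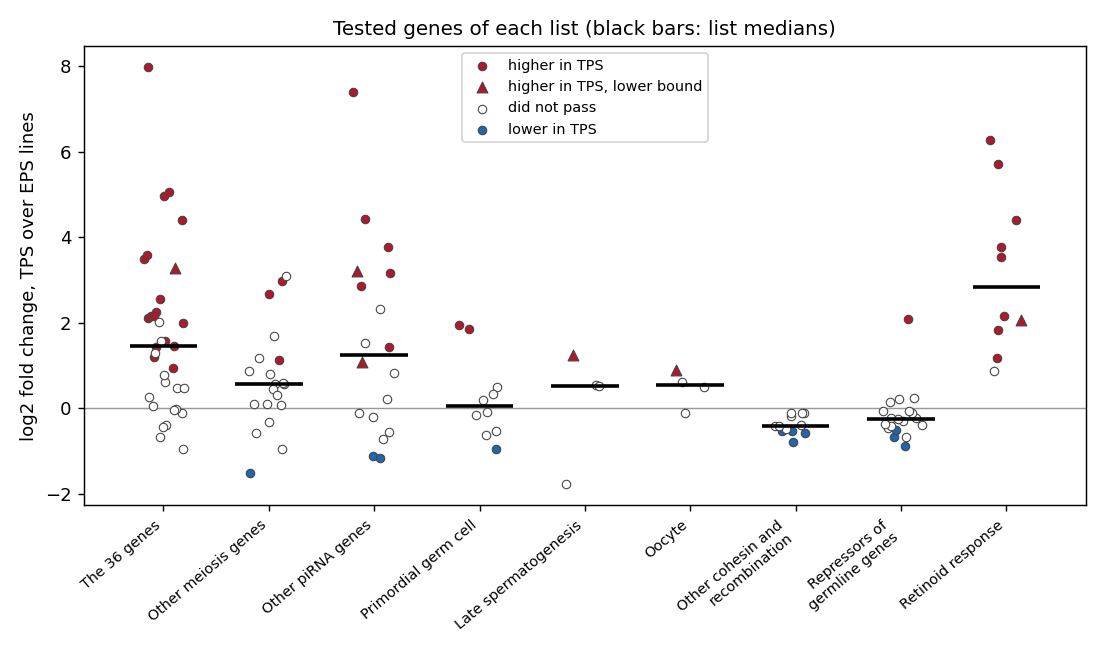
Fitted log2 fold change of TPS over EPS lines for each tested gene of the 36 and of 8 other lists, with black bars at the list medians and triangles at lower bounds for genes at or under 3 counts in every EPS library. The retinoid response list has the highest median, 2.84, and all tested genes of the other cohesin and recombination list lie below 0.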

How the data were processed

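Polyadenylated RNA of 3 TPS and 3 EPS lines was sequenced as 12 libraries (paired-end). Per the submitters' processing notes and the study's methods, reads were trimmed with fastp 0.19.7 and mapped to GRCm38.p6 (mm10) with STAR 2.7.3a. The authors deposited raw counts per gene, without normalization. The counting tool, its annotation and its use of strand are not given in the sources used here. Of 55401 gene identifiers, 55141 matched GENCODE M21 without version. Lines were taken from the labels, and technical replicates were summed. The 6 lines were tested with edgeR 4.0.16 (quasi-likelihood, TMM, filterByExpr) in R 4.3.3, with Benjamini-Hochberg adjustment over 17468 genes. The standard error is the log2 fold change divided by the square root of F. The floor was 3 counts per library and covers counting error only. Alternatives were DESeq2 1.42.0, other scaling, filters, treatment of technical replicates, a replicate block and leaving out each line. All members were described, called ones by line. Other lists were first described by at most 3 called genes of largest fitted change whose lines did not overlap. The called pluripotency genes were all named, and further genes named after their values were seen are marked as such in the text. The members and lists were chosen with earlier results of these data known. On counts simulated for this comparison, 91.5% of 200 genes changed 4-fold were recovered among 17592 tested. The changed genes were drawn from those above 1 CPM on average, and all genes shared a dispersion of 0.106. This share therefore does not hold for the lower members or for genes that vary more. Promoter windows are from RefSeq (GRCm38.p6). The values of some genes of the lists are not reported here.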

Additional observations from a re-analysis of the deposited data

How the results depend on the processing

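Of 18 genes called higher, 11 (Stra8, Sohlh2, Dazl, Smc1b, Sycp1, Syce1, Hormad2, Mael, Tex101, Slc25a31 and Taf7l) were called under each of 15 alternatives, and all 18 stayed positive wherever they could be tested. DESeq2 called all 18 and Spo11, which edgeR's filter left out and which was also called without a filter on low counts. The count higher was 12 to 17 when each line was left out, 11 at an adjusted p under 0.01, 20 with library size alone and 21 with the 12 libraries as separate samples, and 7 of the tested but uncalled genes, besides Spo11, gained a call under some alternative. The count lower was 0 to 1 over the same leave-outs (Stag3 without EPS line 3) and 2 with the 12 libraries (Stag3 and Syce2), which treats technical replicates as independent. Of the other meiosis and piRNA genes together, 11 were higher and 3 lower, with 8 to 10 and 3 when a line was left out, 7 higher at the threshold of 0.01, and 5 lower with the 12 libraries. Library size alone moved the median of all genes by 0.14 on the log2 scale, and against this shift the small values of Ythdc2 (0.02), Sycp3 (0.13) and Mei4 (0.09) turned positive. Sycp3 was also 0.01 with a filter of 1 CPM or with the 12 libraries, and 0.09 with the first technical replicates, and Mei4 was 0.03 with the second. Leave-outs spanned -0.18 to 0.09 for Sycp3, -0.25 to 0.22 for Mei4 and -0.13 to 0.18 for Dmc1. The cause was not tested. Same-numbered TPS and EPS lines correlated at 0.024, -0.116 and 0.042 in their deviations, and not every line correlated best with its own number. With 3 lines per group such weak correlations cannot show whether lines of the same number belong together, and the lines were tested as unpaired. With the replicate block, 16 genes were higher, all of them among the 18, and Hormad1 (edgeR adjusted p = 0.0745) and Prdm9 (0.109) were not. Prdm9 also did not pass without a filter on low counts (0.132). Counts of Spo11 and Rnf212 were low in both groups, and counts of Stra8, Sycp2, Syce3, Tex12 and Terb1 in EPS lines were few.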
